A study of Mus musculus with 8 samples.

Results

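RNA that came down with the RNA-binding protein CPEB1 was compared between the striatum of HD and WT mice. The comparison rests on 2 arrays of the 8 in the series, 1 CPEB1 RIP array from a pool of HD striatum and 1 from a pool of WT striatum. RIP, RNA immunoprecipitation, pulls a protein down with an antibody and measures the RNA crosslinked to it. A probe set, a group of short probes for 1 transcript, was used where the annotation gave it a single symbol, and each of 17097 genes was read from its strongest such probe set, averaged over the 8 arrays. The filter was the median of such averages over all 45101 probe sets, 4.23, and 11345 genes passed it. All values are log2 values, and a difference is the HD value minus the WT value, so that a difference of 1 is a 2-fold change.

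The mice were male and 7 to 8 months old, and striatum was pooled by genotype; the design text names 4 mice, and whether that is the number per genotype was not clear from it. Neither the strain nor the meaning of HD is spelled out in the labels; in work on mouse striatum HD usually stands for Huntington's disease. Both pools were crosslinked with formaldehyde, lysed and precleared with beads. An aliquot was kept as input, and the rest went to antibody against CPEB1, antibody against CPEB4, or rabbit IgG, which measures RNA that sticks to beads and antibody. RNA was amplified over 27 cycles and 8 µg of cDNA was labelled. Each fraction of each pool had 1 array, so there is no spread between replicates, no difference was tested, and every value below describes these arrays. Claims are therefore made for gene groups, for genes with several probe sets, and beside the same difference in IgG and input. Many genes named as examples had no other probe set above the filter, among them Drd2, Pde1b, Stx1a, Arc, Psmd2 and Smn1. Values of such genes are single readings of 1 probe set. Fewer cells of a type and less RNA per cell cannot be told apart in such pooled tissue.

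CPEB1 binds a short uridine-rich element in the 3′ untranslated region of certain mRNAs, the cytoplasmic polyadenylation element. It can hold such an mRNA silent with a short poly(A) tail, or recruit the poly(A) polymerase that lengthens the tail and starts translation. In neurons CPEB proteins are known for translation at synapses, and the principal cells of the striatum are medium spiny neurons, which receive cortical glutamate and midbrain dopamine. Markers of these cells were strong in the input of both pools. Ppp1r1b, the dopamine-regulated phosphatase inhibitor DARPP-32, stood at 11.07 in WT and 10.30 in HD input, and Pde10a, the phosphodiesterase of medium spiny neurons, at 12.20 and 11.34. The dopamine receptor genes Drd1 (4.53 and 4.47) and Drd2 (4.56 and 5.05) were close to the filter value in input. Of the cortical markers, Neurod6 and Tbr1 did not pass the filter, but Slc17a7 did, at 6.50 in WT and 5.37 in HD input.

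Many genes gave a lower signal on the HD than on the WT CPEB1 array. With CPEB1, 2031 genes (17.9%) were 2-fold or more lower in HD and 379 (3.34%) were 2-fold or more higher, 5.36 lower genes for each higher one. The median difference over all genes was 0.00, and differences ran from -5.60 to 4.69. The genes that were lower had a median of 7.79 on the WT array and 5.81 on the HD array, while over all genes the medians were 5.59 and 5.49. In IgG 1138 genes (10%) were lower and 604 (5.32%) higher, and with CPEB4 1320 (11.6%) were lower and 516 (4.55%) higher. In input the balance was the other way, with 503 genes (4.43%) lower and 1277 (11.3%) higher. The split with CPEB1 depended on the scaling: after quantile normalization, which gives all arrays the same distribution, 1320 genes were lower and 950 higher.

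**Figure D1:**
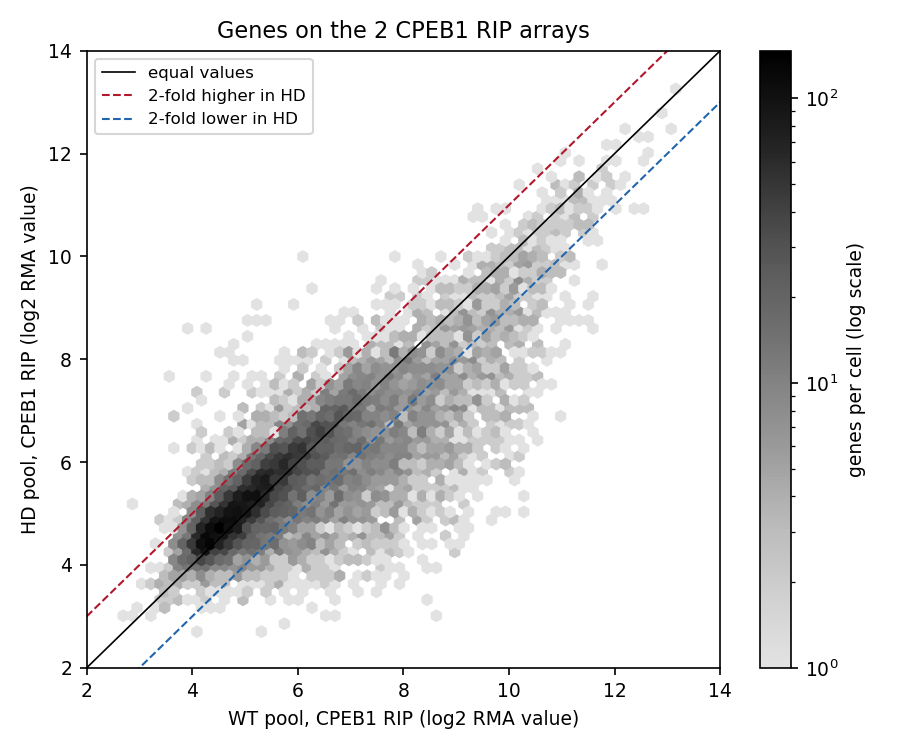
Log2 value of each of the 11345 genes on the WT (x) and HD (y) CPEB1 RIP array, shaded by the number of genes per cell on a log scale. The solid line marks equal values and the dashed lines 2-fold; 2031 genes, with a median WT value of 7.79, lie on or below the lower dashed line, and 379 on or above the upper one.

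The lower genes were concentrated among strongly measured genes. When the genes were divided into 10 equal groups by their mean level over the 8 arrays, the share 2-fold lower in HD with CPEB1 rose from 3.08% in group 1, the lowest, to 38.2% in group 9 and 42% in group 10. The median difference went from 0.16 to -0.61 and -0.79. The share 2-fold higher stayed between 2.47% and 4.5% in all groups. In group 10, 34.3% of genes were lower in IgG and 7.58% with CPEB4, while 38.6% were higher in input. The HD CPEB1 array was also the narrower of its pair: values of the kept genes had an SD of 1.39, against 1.68 in WT, and 866 genes against 1607 stood above 8. The input pair ran opposite (1160 genes above 8 in HD, 770 in WT), and IgG the same way (648 and 924). The part of this narrower array in the gene-level differences was not tested. After quantile normalization 18.8% of group 10 were lower and 12.6% higher, with a median of 0.01. Loess on the mean of the 2 CPEB1 arrays left 24.7% lower and 10.7% higher in group 10, with a median of -0.12, and a median of -0.20 in group 9.

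**Figure D2:**
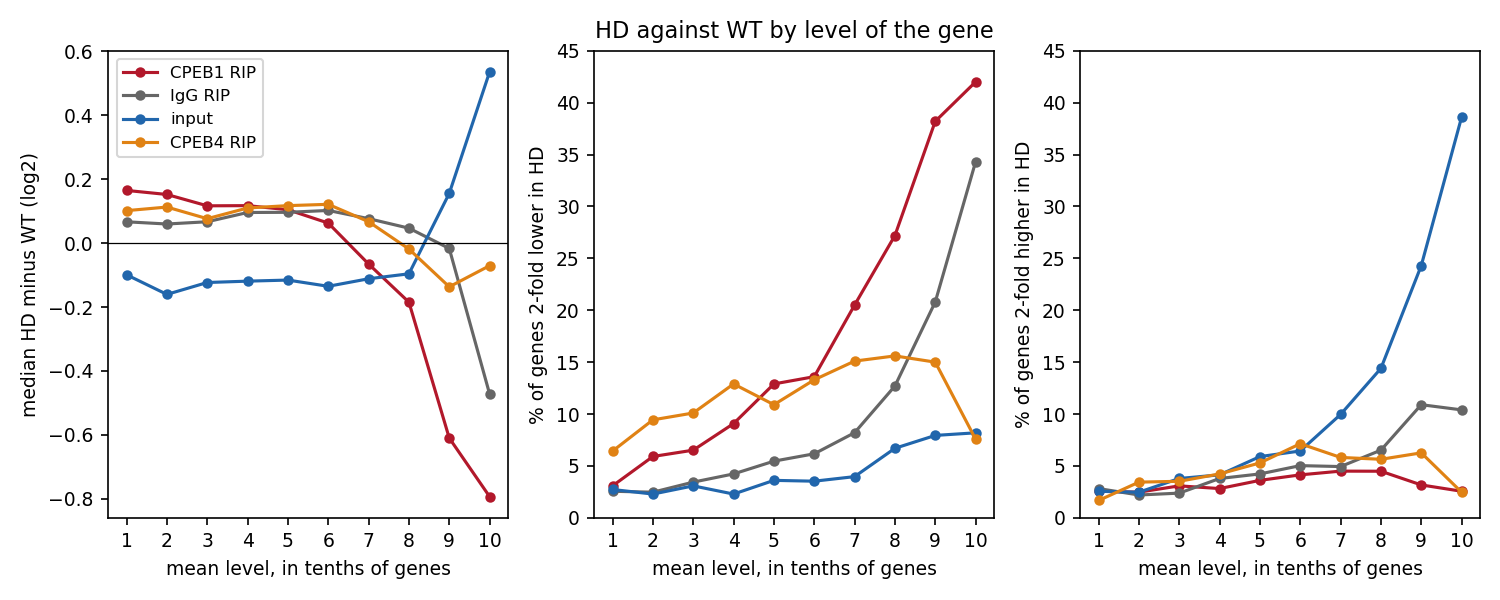
Genes in 10 equal groups by mean level over the 8 arrays (x, 10 the highest), with the median difference HD minus WT in log2 units (left) and the percentage of genes 2-fold lower (middle) and 2-fold higher (right) in HD. Lines are the 4 fractions, 1 array per pool each; the CPEB1 line reaches 42% lower in group 10, where input has 38.6% higher.

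Of the 2031 genes lower with CPEB1, 975 (48%) were 2-fold lower in at least 1 of the other 3 fractions, against 22.8% of all genes. In IgG 521 (25.7%) were also 2-fold lower, against 10% of all genes, and they made up 45.8% of the IgG list. In input 178 (8.76%) were 2-fold lower and 510 (25.1%) 2-fold higher, against 4.43% and 11.3% of all genes. With CPEB4 497 (24.5%) were also lower, against 11.6% of all genes. After the IgG difference was taken off, 1405 of the 2031 (69.2%) were still 2-fold lower, and 1184 (58.3%) were so against IgG and against input. Over all 11345 genes 2017 were 2-fold lower net of IgG. The net value contains the CPEB1 difference by which the 2031 genes were picked, so these shares are no separate check. IgG and input both moved less than 2-fold for 922 of them (45.4%), against 73.8% of all genes. Of the 379 genes higher with CPEB1, 39 (10.3%) were higher in IgG, against 5.32% of all genes, and 40 (10.6%) in input, against 11.3%. Both fractions were within 2-fold for 269 of them (71%). Across the 11345 genes, which share 1 pool on each side and are not independent replicates, the CPEB1 difference had a Pearson correlation of 0.189 with the IgG difference, -0.162 with the input difference and 0.25 with the CPEB4 difference.

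The CPEB1 signal can also be read over IgG within each pool, which uses the same 2 CPEB1 arrays and is no separate evidence. In the WT pool 2134 genes (18.8%) were 2-fold or more above IgG with CPEB1, and in the HD pool 1002 (8.83%). The 508 genes on both lists were 23.8% of the WT list and 50.7% of the HD list. The median over IgG of all genes was 0.10 in WT and 0.07 in HD.

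Of the 50 gene lists examined, 34 had a median at least 0.25 away from that of all genes with CPEB1, 31 of them below and 3 above. The largest fall was in genes that mark medium spiny neurons. Of 44 measured, 40 were kept, 25 were 2-fold lower and none was higher, with a median of -1.44. This fall was not particular to the CPEB1 antibody, since the IgG median was -1.59 and the difference net of IgG had a median of -0.07. The 33 other probe sets of these genes had a median of -1.06, against -0.11 for all other probe sets. The CPEB4 median was -1.10 and that of input -0.24. Drd2, the D2 dopamine receptor gene, gave 8.36 on the WT and 4.11 on the HD array with CPEB1. In IgG it gave 5.58 and 4.92, so it stood above IgG in WT only. Pde1b, a calcium-activated phosphodiesterase, went from 10.53 to 6.49 with CPEB1, from 9.51 to 7.43 in IgG and from 9.74 to 7.25 in input. Sez6, a neuronal membrane protein gene, went from 9.23 to 5.08 with CPEB1 and from 8.62 to 4.40 in IgG. Pde2a, a cyclic GMP-stimulated phosphodiesterase, likewise fell in both, from 10.13 to 6.05 and from 9.19 to 4.45. For these last 2 genes the CPEB1 difference was no larger than the IgG difference. Drd2, Pde1b, Sez6 and Pde2a were the largest falls of the list, and other markers of these cells fell less or not at all. With CPEB1 Ppp1r1b went from 11.11 to 9.17 and Penk from 10.72 to 9.70. Pde10a went from 11.94 to 11.37, less than 2-fold, and Drd1, close to the filter value, gave 4.32 and 4.37. The broader list of cyclic nucleotide and dopamine signalling had 16 of 42 kept genes lower and none higher, with a median of -0.58 with CPEB1, -0.54 in IgG and -0.62 with CPEB4. Its Gnb5, a G protein beta subunit that partners RGS proteins, went from 9.70 to 5.95 with CPEB1, against 8.79 to 6.81 in IgG.

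Synaptic genes fell with CPEB1 by more than they did in IgG, and so did genes of similar level in general. Group 9 by level, with a median level of 7.23, had medians of -0.61 with CPEB1, -0.02 in IgG and 0.16 in input. Of 48 kept genes of presynaptic vesicles and the active zone, 25 were lower and 1 higher, with a median of -1.03 against -0.32 in IgG and 0.09 in input. Their 51 other probe sets had a median of -0.60. Stx1a, the plasma membrane SNARE syntaxin 1A, stood at 7.94 in WT and 3.77 in HD with CPEB1. Its IgG values were 3.74 and 4.10 and its input values 3.88 and 4.05. Only the WT CPEB1 array and the 2 CPEB4 arrays (6.43 and 6.22) were therefore far above 4. Doc2b, a calcium sensor of vesicle release, had the same shape, with 8.62 and 5.08 for CPEB1 and 4.60 and 4.71 for IgG; its other probe set differed by -2.75. Vamp2, the vesicle SNARE synaptobrevin 2, went from 10.74 to 7.49 with CPEB1 but also from 9.88 to 6.05 in IgG.

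Postsynaptic scaffold and adhesion genes had 17 of 39 lower and 1 higher, with a median of -0.85 against -0.21 in IgG and 0.10 in input. Their 37 other probe sets had a median of -0.29. Dlg2, which encodes the scaffold PSD-93, gave 7.97 in WT and 4.86 in HD with CPEB1, 5.80 and 5.09 in IgG, and 5.03 and 4.87 in input. The other Dlg2 probe set differed by -4.36. Adgrb1, an adhesion receptor of the postsynapse, went from 9.26 to 7.15 with CPEB1 while input went from 6.95 to 9.47. Dlg3, which encodes SAP102, fell less with CPEB1 (8.05 to 6.10) than in IgG (9.02 to 6.28). Arc, an activity-induced mRNA that is carried into dendrites, went from 10.01 to 6.62 with CPEB1, from 7.11 to 6.37 in IgG and from 11.08 to 9.86 in input. The list of immediate early genes as a whole had no direction, with 4 of 22 lower, 1 higher and a median of -0.01.

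Among the calcium/calmodulin kinases and their relatives 7 of 12 were lower and none higher, and the CPEB1 and IgG medians were both -1.27. Their 12 other probe sets had a median of -1.35, 11 of them below 0. Camk2a, the alpha subunit of CaMKII and a long-studied CPEB1 target, gave 12.56 in WT and 10.85 in HD with CPEB1, 10.91 and 9.99 in IgG, and 11.52 and 12.04 in input. Its 4 other probe sets differed by 0.57, -2.37, -1.15 and -1.71. Camk2b went from 9.79 to 6.30 with CPEB1 and from 8.91 to 5.90 in IgG, and Camkv, a kinase-like synaptic protein gene, from 10.48 to 7.63 and from 9.09 to 7.45. Microtubule-associated proteins had 16 of 34 lower and 1 higher, with a median of -0.91 against -0.26 in IgG and 0.26 in input, and 33 other probe sets had a median of -0.64. Map1b, which stabilises microtubules in growing neurites, went from 9.14 to 6.77 with CPEB1 while IgG went from 7.42 to 8.07, and its other probe set differed by -4.23. Tppp, a tubulin polymerisation gene, gave 6.82 and 3.86 with CPEB1 against 3.63 and 3.59 in IgG. Ionotropic glutamate receptor subunits had 5 of 15 lower and a median of -0.56, which became 0.03 relative to all genes after quantile normalization. Gria2, an AMPA receptor subunit, went from 6.82 to 4.39, but its other probe set differed by 0.36; Grin2b, an NMDA receptor subunit, went from 9.53 to 8.17, and its other probe set by -2.11. For GABA-A receptor subunits 2 of 7 were lower, with a median of -0.33; their 5 other probe sets had a median of 0.65, and without the filter the shift from all genes was 0.00.

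**Figure D3:**
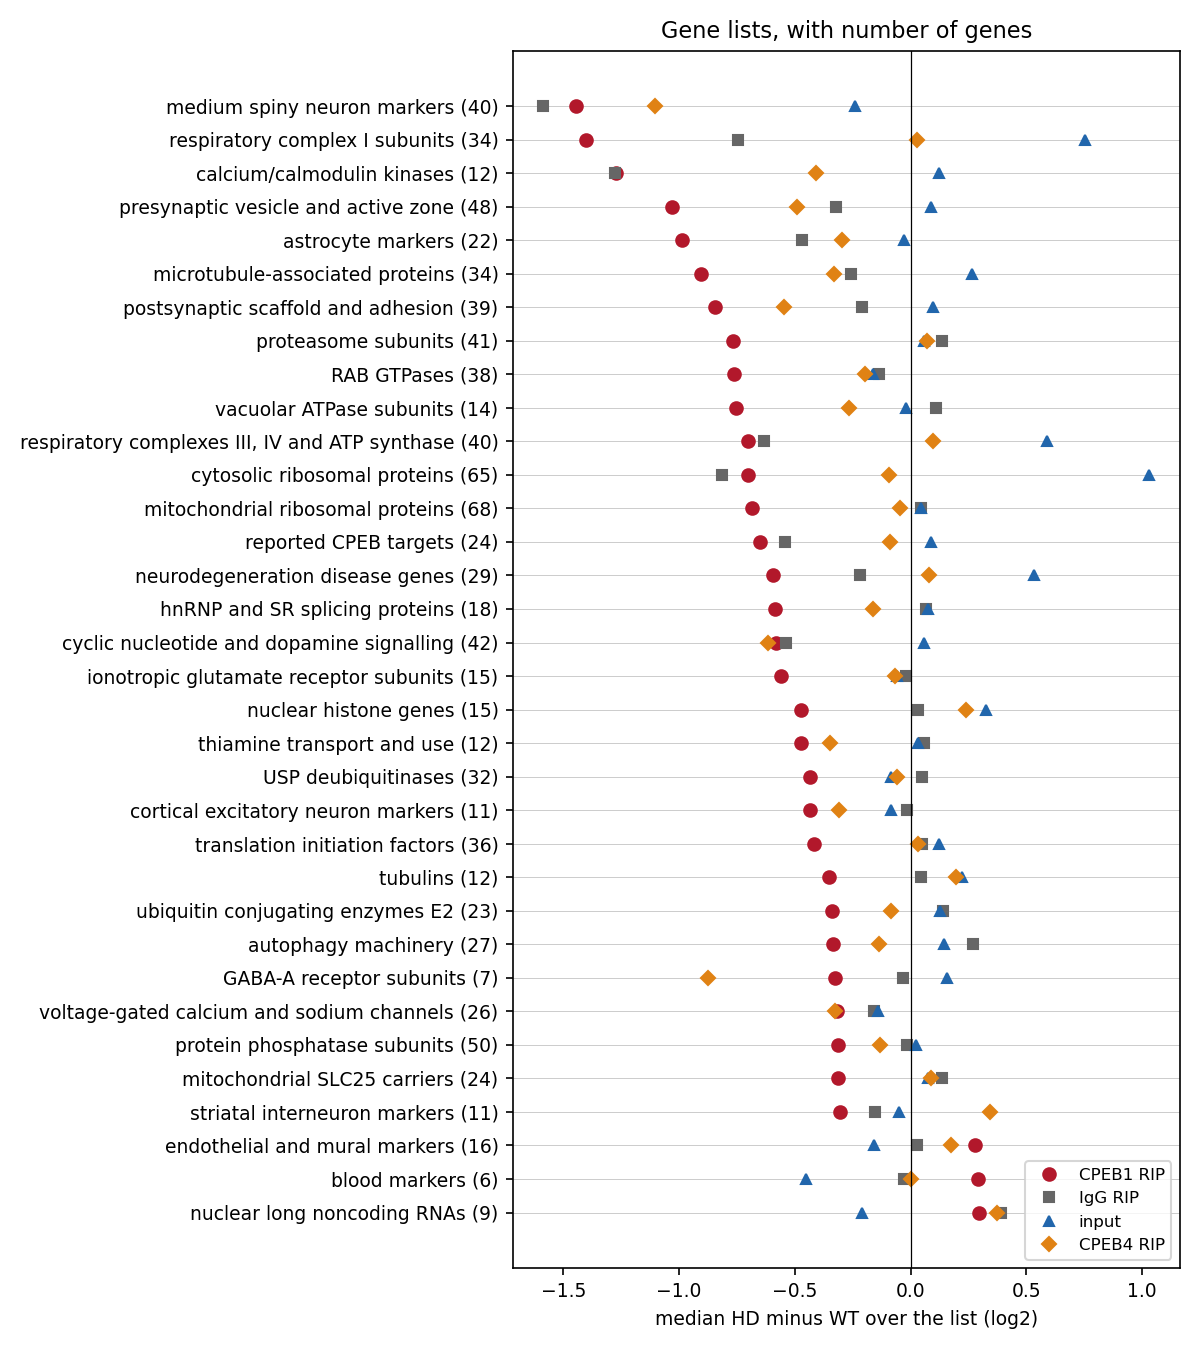
Median difference HD minus WT, in log2 units (x), for the 34 gene lists whose CPEB1 median lay at least 0.25 from that of all genes; the number of kept genes is in brackets. Markers are the 4 fractions, 1 array per pool; for medium spiny neuron markers CPEB1 (-1.44) and IgG (-1.59) lie together, whereas for proteasome subunits CPEB1 (-0.77) lies apart from the other 3.

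Markers of other cells of the striatum did not move together with CPEB1. Astrocyte markers had 11 of 22 lower and none higher, with a median of -0.99, against -0.47 in IgG and -0.03 in input. Ttyh1, an astrocyte membrane protein gene, went from 8.63 to 5.66 with CPEB1 but from 10.16 to 10.32 in IgG, and its 2 other probe sets differed by -3.78 and -1.62. Gfap, the astrocyte intermediate filament gene, went from 6.19 to 4.0 with CPEB1 while it rose from 6.43 to 8.27 in IgG and from 6.13 to 8.61 in input. Interneuron markers had 4 of 11 lower, with a median of -0.31. Pvalb (9.07 and 6.19), Npy (7.85 and 5.08) and Sst (10.18 and 8.91) were among them, and in input all 3 differed by less than 2-fold (7.25 and 8.11, 7.99 and 7.83, 8.68 and 8.95). In IgG 3 of the 11 were lower. Pvalb fell there from 7.67 to 6.34, while Npy (7.23 and 6.90) and Sst (8.72 and 8.19) differed by less than 2-fold. Cortical excitatory markers had a median of -0.43. Myelin genes showed no direction: 1 of 20 was lower and 1 higher, with a median of -0.03. Mobp, a myelin gene, went from 9.40 to 7.71, and Cnp, a myelin enzyme gene, from 7.88 to 9.24, although its other probe set differed by -0.18. Microglia, oligodendrocyte precursor and choroid plexus lists also had none. Ttr, the choroid plexus carrier transthyretin, was higher in HD in all 4 fractions, from 9.47 to 10.92 with CPEB1, 9.43 to 10.79 in IgG, 9.02 to 11.13 with CPEB4 and 6.60 to 10.49 in input; its other probe set differed by -0.84 with CPEB1.

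Genes of energy metabolism and of the ribosome moved down with CPEB1 and up in input. So did group 10 by level, with medians of -0.79 with CPEB1 and 0.54 in input. Of 34 subunits of respiratory complex I, 20 were lower and none higher, with a median of -1.40 with CPEB1, -0.75 in IgG, 0.75 in input and 0.03 with CPEB4. Net of IgG the median was -0.15, and the 24 other probe sets had a median of -0.85 with CPEB1. Ndufa1 went from 7.95 to 4.03 with CPEB1, 4.36 to 4.80 in IgG and 8.89 to 8.06 in input. Ndufb4 went from 8.85 to 6.23, against 7.66 to 6.63 in IgG, and its 2 other probe sets differed by -3.19 and 0.16. Complexes III and IV with ATP synthase had 13 of 40 lower and none higher, with medians of -0.70, -0.63 in IgG and 0.59 in input; relative to all genes this became 0.02 after quantile normalization and 0.08 after cyclic loess. Atp5b, the catalytic beta subunit of ATP synthase, went from 9.68 to 4.80 with CPEB1 and from 9.65 to 6.40 in IgG.

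Cytosolic ribosomal proteins, among the most abundant mRNAs of a cell, had 23 of 65 lower and none higher with CPEB1, 26 lower in IgG and 36 higher in input. Their 35.4% lower with CPEB1, like the 32.5% of complexes III and IV with ATP synthase, was under the 42% of group 10, the strongest genes. Their medians were -0.70, -0.81 and 1.03, and -0.09 with CPEB4; relative to all genes the CPEB1 median turned to 0.33 after cyclic loess, to 0.15 after loess on the pair and to 0.15 net of IgG. Rps20 went from 10.20 to 7.07 with CPEB1, and its other probe set differed by -3.09. Rpl32 showed opposite moves, from 9.49 to 5.63 with CPEB1 and from 7.16 to 10.62 in IgG. Translation initiation factors had 12 of 36 lower and 3 higher, with a median of -0.42. Eif4a1, the RNA helicase of cap-dependent initiation, went from 9.18 to 5.16 with CPEB1 while input went from 6.38 to 8.39. It also fell in IgG, from 7.67 to 6.19, and its other probe set differed by -0.74 with CPEB1. Eif3b, a scaffold subunit of eIF3, went from 9.85 to 5.95 with CPEB1 and from 5.43 to 7.12 in IgG.

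Proteasome subunits and mitochondrial ribosomal proteins were lower with CPEB1 and close to all genes in IgG, input and CPEB4, and vacuolar ATPase subunits were so in IgG and input. Of 41 proteasome subunits 18 were lower and 1 higher, with a median of -0.77 against 0.13, 0.06 and 0.07. Of 68 mitochondrial ribosomal proteins 25 were lower and 1 higher, with a median of -0.69 against 0.05, 0.04 and -0.04. Vacuolar ATPase subunits, which acidify synaptic vesicles and lysosomes, had 5 of 14 lower and a median of -0.75 against 0.11, -0.02 and -0.26. In the WT pool the medians of CPEB1 over IgG for these 3 lists were 0.82, 0.74 and 0.79, and in the HD pool they were 0.13, 0.03 and -0.11.

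Psmd2, a subunit of the proteasome's regulatory particle, went from 9.21 to 5.47 with CPEB1, from 5.92 to 8.87 in IgG and from 5.23 to 8.51 in input. Psmd12, of the same particle, gave 7.83 and 5.13 with CPEB1 and 4.85 and 5.15 in IgG. Mrpl20, a protein of the large mitochondrial ribosomal subunit, gave 7.70 and 5.05 with CPEB1 and 4.77 and 5.07 in IgG. In both of these the HD CPEB1 value lay within 0.1 of the HD IgG value. Atp6v1a, the catalytic subunit of the vacuolar ATPase, went from 7.18 to 3.48 with CPEB1, the HD value under the filter, while IgG went from 6.39 to 7.17 and CPEB4 from 9.63 to 10.19. Its other probe set differed by -0.20, and the 2 others of Atp6v0a1 by -2.16 and -2.03, beside 9.69 to 7.88 in the chosen one. The other probe sets of 2 of these lists did not show the fall: the 13 of proteasome genes had a median of -0.03 and the 29 of mitochondrial ribosomal proteins -0.02, against -0.11 over all other probe sets. The 9 of vacuolar ATPase genes were all below 0, with a median of -0.78.

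RAB GTPases, which direct vesicle traffic, had 14 of 38 lower and 2 higher, with a median of -0.76 against -0.14 in IgG; their 28 other probe sets had a median of -0.16. Rab4a, of recycling endosomes, went from 7.97 to 4.52 with CPEB1 and 4.39 to 3.78 in IgG, and its other probe set differed by -1.09. Rab18, of lipid droplets and the endoplasmic reticulum, moved the other way, from 5.0 to 8.05, while its other probe set differed by 0.29. Autophagy genes had 8 of 27 lower and 1 higher, with a median of -0.33 against 0.27 in IgG; Gabarap, an autophagosome protein gene, went from 9.33 to 7.21 with CPEB1 and from 6.14 to 8.51 in IgG. Genes of thiamine transport and thiamine-dependent enzymes had 4 of 12 lower and none higher, with a median of -0.47 against 0.06 in IgG, 0.03 in input and -0.35 with CPEB4. Ogdh, of the oxoglutarate dehydrogenase complex, gave 7.60 and 4.76 with CPEB1 and 4.40 and 4.35 in IgG, but its other probe set differed by -0.33. Pdha1, of pyruvate dehydrogenase, went from 8.32 to 7.11, and its other probe set by -2.21. Slc19a3, a thiamine transporter, was below the filter with 3.45 and 3.68.

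Since strong genes were lower more often, the lists can be set beside the groups by level. Medium spiny neuron markers, with a median level of 7.43, were lower in 62.5%, and presynaptic genes, at 6.96, in 52.1%, where groups 8 and 9, with median levels of 6.56 and 7.23, had 27.2% and 38.2%. Postsynaptic genes, at 7.28, were lower in 43.6%, beside the 38.2% of group 9. Proteasome subunits (median level 6.27) were lower in 43.9% and mitochondrial ribosomal proteins (6.11) in 36.8%, beside 20.5% in group 7 (6.09). Vacuolar ATPase subunits (7.27) had 35.7%, tubulins (7.19) 33.3% and histone genes (7.08) 20%, under the 38.2% of group 9.

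Of the 34 lists with a direction, 20 kept a shift of at least 0.25 the same way under each of the 3 normalizations tried, and 16 did so net of IgG. All 4 conditions were met by 13 lists: presynaptic, postsynaptic, microtubule-associated, RAB, proteasome, mitochondrial ribosomal, hnRNP and SR, E2 enzyme, autophagy, thiamine, GABA-A, interneuron and cortical neuron genes. Other choices of probe sets took 4 of them under 0.25: over every probe set GABA-A genes had -0.02, autophagy genes -0.10 and E2 enzymes -0.21, and with the mean over probe sets cortical genes had -0.11. Without the filter E2 enzymes had -0.18 and GABA-A genes 0.00. RAB genes then fell just under the limit, at -0.247, and hnRNP and SR genes stood at it, at -0.250. With the 75th percentile filter cortical genes had -0.16. The other probe sets of GABA-A, cortical and autophagy genes had medians above 0, of 0.65, 0.31 and 0.06. For medium spiny neuron markers and complex I the shift held under all 3 normalizations but came to -0.04 and -0.11 net of IgG.

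RNA-binding proteins and CPEB genes themselves were mixed. Cpeb3 was the family member well above the filter with CPEB1, at 10.17 in WT and 10.12 in HD, a difference of -0.05 that became 0.64 after quantile normalization and 0.77 after cyclic loess, while IgG went from 9.30 to 7.29; its other probe set differed by -1.10. Cpeb1 (3.90 and 3.46), Cpeb2 (3.31 and 3.17) and Cpeb4 (3.31 and 3.76) were below it, so nothing can be said of the mRNA of the precipitated protein. Genes reported as CPEB targets had 10 of 24 lower and none higher, with a median of -0.65, close to -0.54 in IgG, and their 21 other probe sets had a median of -1.39. Relative to all genes their shift was -0.20 after quantile normalization, -0.15 after cyclic loess, -0.16 after loess on the pair and -0.08 net of IgG, under 0.25 in all 4. Stau2, a double-stranded RNA-binding protein of dendritic transport, went from 8.41 to 4.82 with CPEB1 and from 7.59 to 4.70 in IgG. hnRNP and SR splicing proteins had 7 of 18 lower and none higher, with a median of -0.59 against 0.06 in IgG; Hnrnpl went from 8.64 to 6.02 with CPEB1 and from 6.52 to 5.64 in IgG. Poly(A) and deadenylation factors had no direction, with 6 of 47 lower, 3 higher and a median of -0.19. Dcp2, the decapping enzyme, rose from 5.24 to 8.69, while its other probe set differed by 0.00, and Fip1l1, of the cleavage and polyadenylation complex, went from 9.10 to 5.81, with 0.48 in its other probe set.

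The 3 lists above all genes had medians of 0.28 for endothelial and mural markers, 0.29 for blood markers and 0.30 for nuclear long noncoding RNAs. No endothelial marker differed by 2-fold. The blood list held the haemoglobin gene Hba-a1, which was lower with CPEB1 (10.90 and 9.70), and over every probe set its shift was -0.03. Miat, a nuclear noncoding RNA, went from 7.49 to 9.38 with CPEB1 but from 6.63 to 10.14 in IgG. Meg3, another, went from 10.47 to 11.69 with CPEB1 and from 11.43 to 12.10 in IgG, and its 9 other probe sets ranged from -1.91 to 1.90. The noncoding RNA list had a higher median in IgG (0.39) than with CPEB1.

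Other probe sets of the same gene read another stretch of the transcript on the same 2 arrays. Of the genes lower with CPEB1, 898 had 1318 other probe sets above the filter; 71.8% of these were below 0 and 39.5% were 2-fold lower, while 1.75% were 2-fold higher. Over all 3407 genes with such probe sets the shares were 57.2%, 22.9% and 2.89%. For the genes higher with CPEB1, of 196 other probe sets of 138 genes 59.2% were above 0, against 42.8% over all genes. Of these other probe sets 6.12% were 2-fold higher, against 2.89%, and 13.3% were 2-fold lower. A gene was counted as supported when another probe set was 2-fold the same way and the CPEB1 difference exceeded the IgG difference by 1. By that count 263 genes were lower and 8 were higher, with clone identifiers left out. The 898 and 138 genes with another probe set were counted without leaving such identifiers out. Other probe sets leaned the same way without selection: for genes within 2-fold, 16.9% of them were 2-fold lower and 3.16% higher. The IgG condition reuses the CPEB1 difference by which the genes were picked, so the split between 263 and 8 is no separate evidence.

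**Figure D4:**
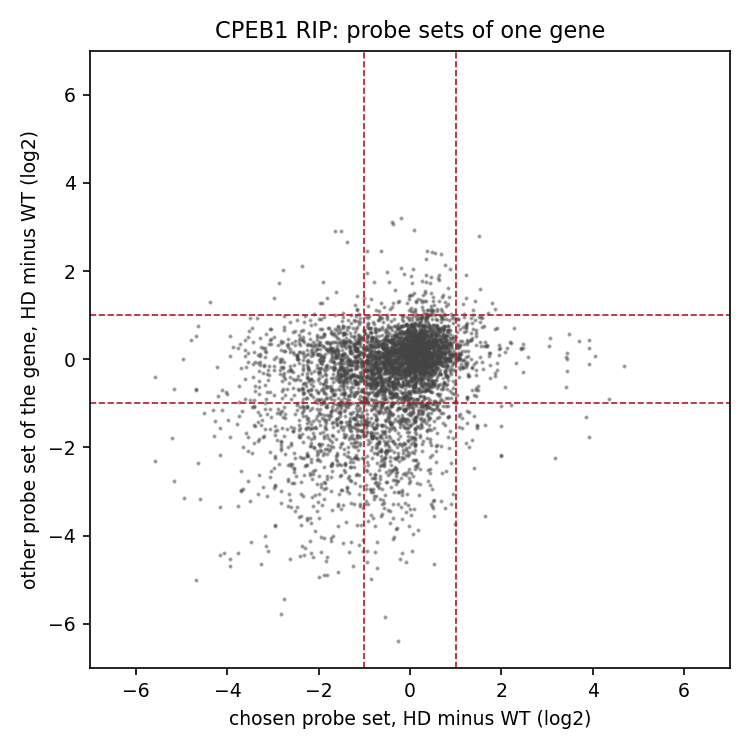
Difference HD minus WT with CPEB1, in log2 units, of the chosen probe set of a gene (x) and of each other probe set of the gene (y), for 4807 other probe sets of 3407 genes; dashed lines mark 2-fold. Among lower genes 39.5% of the other probe sets lie below the lower line, and among higher genes 6.12% lie above the upper one.

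The 12 largest supported falls ran from -5.60 to -4.15. Napb encodes beta-SNAP, which helps take SNARE complexes apart after vesicle fusion. It stood at 8.65 on the WT and 3.05 on the HD CPEB1 array, with 7.89 and 3.31 in IgG and 7.55 and 3.16 in input. It was thus low in the HD pool in 3 fractions, but with CPEB4 it gave 9.91 and 8.32. Its HD value lay below the filter value, and with values under 4.23 raised to it the difference was -4.42. Eif2s3x, the X-linked gamma subunit of initiation factor eIF2, fell with CPEB1 while its other 3 pairs of arrays differed by less than 2-fold. It gave 8.50 and 3.32 with CPEB1 (-4.27 with the same floor), 3.20 and 3.23 in IgG, 3.5 and 3.22 in input, and 8.28 and 9.16 with CPEB4. Its signal was high in WT CPEB1 and in both CPEB4 precipitates and low on the other 5 arrays. Of its 2 other probe sets, 1 differed by -2.76 and the other by -0.67.

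Arel1, a HECT-type ubiquitin ligase gene, had a similar shape, with 9.11 and 4.85 with CPEB1, 4.95 and 4.58 in IgG, 4.44 and 4.29 in input, and 9.76 and 8.41 with CPEB4. Srgap3, which acts in Slit-Robo signalling of axon guidance, gave 9.01 and 4.70 with CPEB1, 4.68 and 4.79 in IgG, and 4.78 and 6.64 in input. Their other probe sets differed by -1.40 and -1.16. In both, WT CPEB1 stood over 4 log2 units above IgG and the HD array did not stand above it by 1. Btbd9, a BTB-domain protein gene, went from 9.02 to 4.87 with CPEB1 while input rose from 5.24 to 8.58. Cyfip2, a subunit of the actin-regulating WAVE complex and partner of the fragile X protein, gave 10.97 and 6.80 with CPEB1, 9.52 and 9.02 in IgG, and 6.71 and 7.78 in input; its other probe set differed by -3.34. Caln1, a neuronal calcium sensor gene, went from 10.27 to 6.10 with CPEB1 and from 7.64 to 5.41 in IgG, and its other probe set differed by -4.44. Atp5j2, an ATP synthase subunit, went from 9.96 to 5.0 with CPEB1 and from 9.79 to 8.11 in IgG, and its other probe set differed by -3.14. Dpf1, of the neuronal BAF chromatin remodeller, went from 8.93 to 4.42 with CPEB1 and from 8.50 to 6.87 in IgG.

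For 3 of the 12 genes IgG moved up by more than 3 while CPEB1 moved down. Pacs2, a sorting protein of contacts between endoplasmic reticulum and mitochondria, went from 10.25 to 5.03 with CPEB1 and from 4.58 to 11.59 in IgG. Tlk1, a kinase of chromatin assembly, went from 8.93 to 4.27 with CPEB1 and from 4.09 to 8.74 in IgG. Tnpo2, a nuclear import receptor, went from 8.84 to 4.55 with CPEB1, from 4.34 to 8.04 in IgG and from 9.85 to 5.46 in input. Their CPEB4 values differed by less than 2-fold for Pacs2 (9.39 and 9.58) and Tnpo2 (9.13 and 8.67), and by 2-fold for Tlk1 (9.11 and 8.06). For each of these genes the IgG pair and the CPEB1 pair both differed by more than 3, so net values for them rest on 4 single readings. Odf2, a centriole gene, was as large by its chosen probe set (10.36 to 5.39) but its other probe set differed by 0.02.

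**Figure D5:**
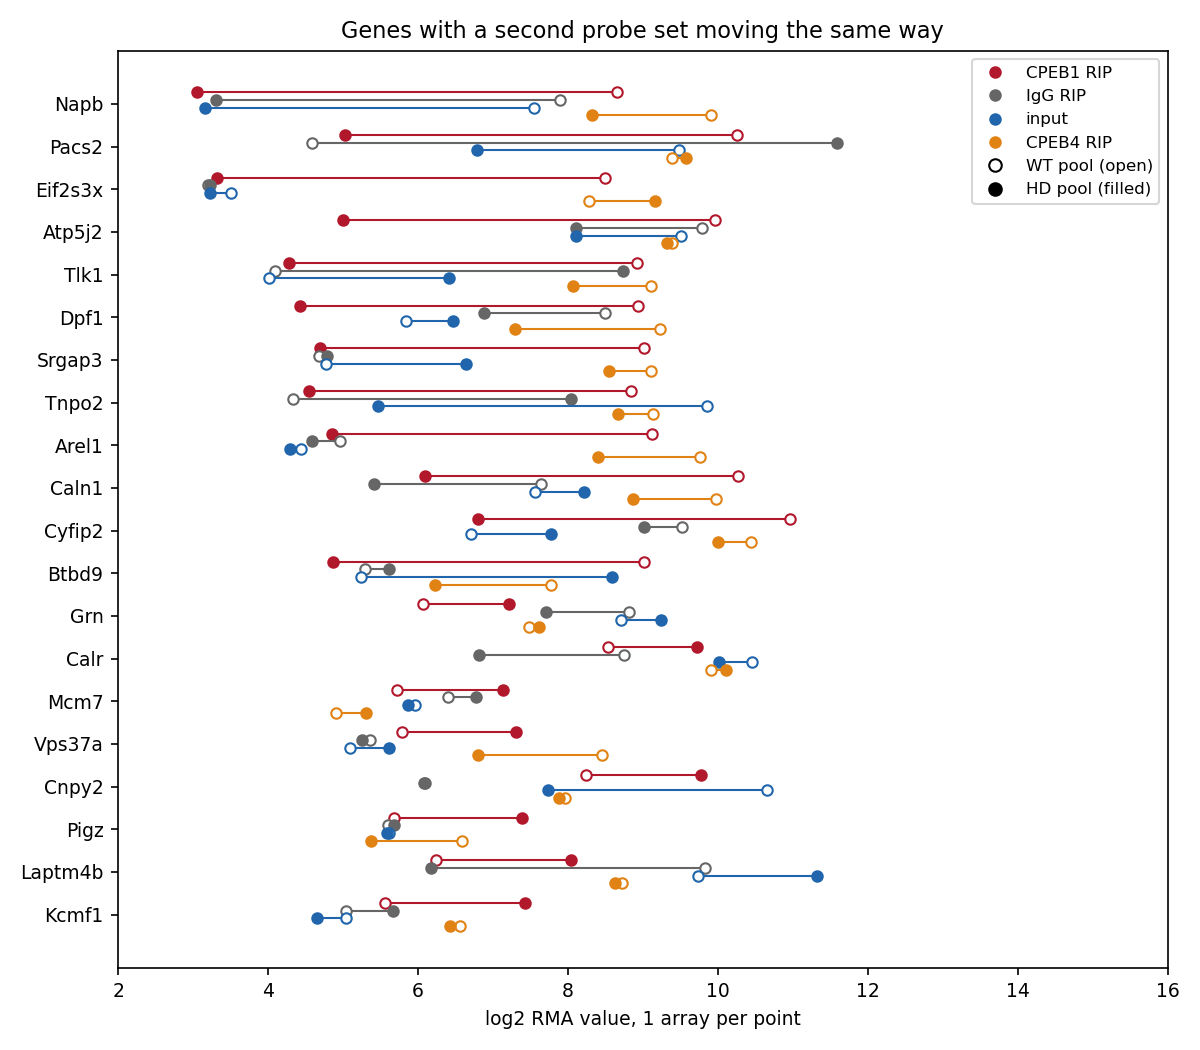
Log2 values (x) of the 12 largest supported falls and the 8 supported rises on all 8 arrays, with a line joining the WT (open) and HD (filled) array of each fraction. Eif2s3x, Arel1 and Srgap3 show a long CPEB1 line beside short IgG lines; Pacs2, Tlk1 and Tnpo2 show CPEB1 and IgG lines that run opposite ways.

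The 8 supported rises were small, between 1.15 and 1.86. Kcmf1, a ubiquitin ligase gene, went from 5.57 to 7.43 with CPEB1 and from 5.05 to 5.66 in IgG; its 2 other probe sets differed by 1.14 and -0.30. Vps37a, of the ESCRT-I complex that sorts membrane proteins for the lysosome, went from 5.79 to 7.31 with CPEB1 against 5.36 and 5.25 in IgG, and its other probe set rose by 2.80. Pigz, of glycolipid anchor synthesis, gave 5.69 and 7.39 with CPEB1, 5.60 and 5.68 in IgG and 5.62 and 5.58 in input. For these 3 genes input differed by less than 2-fold, whereas CPEB4 was lower in HD for Vps37a (8.46 and 6.80) and Pigz (6.59 and 5.37). Cnpy2, a protein gene of the endoplasmic reticulum, went from 8.25 to 9.77 with CPEB1, stayed at 6.10 and 6.08 in IgG, and went from 10.66 to 7.73 in input. Calr, the chaperone calreticulin, went from 8.53 to 9.72 with CPEB1 and from 8.74 to 6.81 in IgG. Laptm4b, a lysosomal membrane protein gene, went from 6.24 to 8.04 with CPEB1 and from 9.83 to 6.18 in IgG. Grn, progranulin, whose loss causes frontotemporal dementia, went from 6.07 to 7.22 with CPEB1 and from 8.81 to 7.71 in IgG. Mcm7, of the replicative helicase, went from 5.72 to 7.14 with CPEB1, against 6.40 and 6.77 in IgG. For these last 4 genes the WT CPEB1 value lay below IgG, and for Grn the HD value did too.

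None of the 5 largest rises had another probe set at 2-fold higher. Cpne8, a calcium-dependent membrane-binding protein gene, went from 3.89 to 8.58 with CPEB1, with 3.84 and 3.96 in IgG, and its other probe set differed by -0.14. The mean of Cpne8 over the other arrays lay below the filter value, so it passed the filter only through the HD CPEB1 array. Rbms1, an RNA-binding protein gene, went from 3.63 to 7.67 (a difference of 3.45 with the floor), with 3.86 and 4.57 in IgG and 7.88 and 6.76 with CPEB4, and 0.07 in its other probe set. Plagl2, a zinc finger factor, went from 4.30 to 8.66 with CPEB1 and fell in IgG from 7.12 to 4.73 and in input from 6.56 to 3.92; its other probe set differed by -0.90. Slc9a3r2, a scaffold gene, and Cgrrf1, a RING finger gene, rose by 3.92 and 3.86, each with an other probe set 2-fold lower. Htt, the huntingtin gene, gave 5.69 in WT and 6.79 in HD with CPEB1, 6.06 and 5.84 in IgG, and 6.15 and 5.85 in input, and its 2 other probe sets differed by 0.04 and 0.33. Its 2-fold rise was therefore not seen elsewhere along the transcript.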

How the data were processed

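RNA of 4 striatal fractions (CPEB1 RIP, CPEB4 RIP, IgG RIP, input) from 2 genotype pools was hybridised to 8 mouse Affymetrix arrays. The deposited values are log2 probe set values made with RMA (background correction, normalization and probe summary), as named in the submitters' processing notes. For the RMA version, and for joint normalization of the 8 arrays, nothing is stated: not given in the sources used here. They were used as deposited. Of 45101 probe sets, 28898 carried 1 gene symbol, 551 several and 15652 none in the platform annotation, and 28689 were matched to a RefSeq gene table; no coordinates are given.

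HD minus WT differences were formed in Python 3.11.15 with pandas 2.3.3, and genes counted at a log2 difference of 1. With 1 array per group nothing was tested; the number of arrays limits the precision. The counting was checked on simulated arrays. A list was given a direction with at least 5 kept genes and a median 0.25 or more from that of all genes. Named genes were the 12 largest each way with another probe set at 2-fold and a difference 2-fold net of IgG, the 5 largest each way, up to 4 of each list, the fixed markers, and the Cpeb genes, Htt and Slc19a3, leaving out clone identifiers and predicted genes. The comparison and lists were chosen with earlier results of these data known. Quantile normalization and cyclic loess (limma 3.58.1, R 4.3.3), loess on the pair, median centring, other filters, probe set rules, folds and a floor were the alternatives.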

Additional observations from a re-analysis of the deposited data

Results flagged for a closer look

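Several gene groups moved one way with CPEB1 and the other way in input, each relative to all genes. These differences were not tested. Strongly measured genes in general moved down with CPEB1 and up in input. Group 10 by level had medians of -0.79 and 0.54, and group 9 had -0.61 and 0.16, against 0.00 and -0.08 over all genes. The CPEB1 shift less the input shift was -2.24 for respiratory complex I, -1.82 for cytosolic ribosomal proteins, -1.38 for complexes III and IV with ATP synthase, -1.25 for microtubule-associated proteins, -1.21 for neurodegeneration genes, -0.89 for histone genes, -0.66 for tubulins and 0.66 for blood markers. Among the genes named by the rule, 6 moved by more than 3 in opposite directions with CPEB1 and in IgG, also untested. The CPEB1 difference less the IgG difference was -12.2 for Pacs2, -9.30 for Tlk1, -8.83 for Odf2, -8.0 for Tnpo2, -7.32 for Rpl32 and -7.30 for Slc25a23, a mitochondrial carrier gene.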

How the results depend on the processing

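With 1 array per group there is no replicate to leave out and no test whose call could change. No paired analysis was possible because each group has 1 array. The number of genes 2-fold higher with CPEB1, 379, became 237 with a 75th percentile filter, 217 with the mean over probe sets, 950 after quantile normalization, 1001 net of IgG and 1126 net of input, and 1335 and 120 at 1.5-fold and 3-fold. The number lower, 2031, became 3133 over every probe set, 1320 after quantile normalization and 1173 at 3-fold, and lay within 1.5 times under the others. Quantile normalization moved the median of all genes to 0.13 and median centring to -0.13. List shifts that changed sign, relative to all genes, were those of ribosomal proteins (0.33 cyclic loess, 0.15 loess on the pair, 0.15 net of IgG), histone genes (0.23 quantile, 0.11 cyclic loess, 0.011 loess on the pair, 0.27 net of IgG) and complexes III to V (0.025 quantile, 0.081 cyclic loess). Others were ionotropic glutamate receptors (0.025 quantile), blood markers (-0.029 over every probe set) and, net of IgG, noncoding RNAs (-0.22), USP enzymes (0.020), phosphatases (0.017) and cyclic nucleotide genes (0.0043). Net of IgG the sign turned for Sez6 (0.074), Pde2a (0.66), Vamp2 (0.58), Dlg3 (0.78), Aldoc (1.56), Ppp1r1b (0.79), Penk (0.049), Mobp (2.26), Miat (-1.62) and Xbp1 (-0.30), and net of input for Tnpo2 (0.092), Egr3 (0.43), Gpr37l1 (2.17), Map6 (0.47), Penk (0.31) and Ttr (-2.44). After cyclic loess it turned for Penk (0.059) and Hba-a1 (0.072). Of genes under 2-fold, Pde10a turned from -0.57 to 0.79 after cyclic loess, 0.29 after loess on the pair, 2.32 net of IgG and 0.29 net of input, Cpeb3 from -0.05 to 0.64, 0.77, 0.71 and 1.97 (quantile, cyclic loess, loess on the pair, net of IgG), and Cpeb2 from -0.14 to 0.05 net of input. The causes were not tested. All 34 list shifts kept their direction and size class net of input and under median centring.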

Other observations

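Lists not described in the report split into those with and those without a direction with CPEB1. Protein phosphatase subunits had 17 of 50 genes lower and 3 higher, with a median of -0.31 against -0.02 in IgG. Ppp1ca, a catalytic subunit of phosphatase 1, went from 11.14 to 8.67 with CPEB1 and from 9.61 to 8.71 in IgG. Ppp1r1a, an inhibitor of the same enzyme, went from 9.78 to 6.59 with CPEB1 and from 6.79 to 6.40 in IgG. Ppp6r3, a regulatory subunit of phosphatase 6, rose from 5.24 to 7.72, while its 3 other probe sets differed by 0.35, 0.26 and -0.30. Voltage-gated calcium and sodium channels had 10 of 26 lower and 1 higher, with a median of -0.32, and tubulins 4 of 12 lower, with -0.35. Genes of neurodegenerative disease had 10 of 29 lower and 3 higher, with a median of -0.60 against -0.22 in IgG and 0.53 in input. Among them Smn1, the spinal muscular atrophy gene, gave 8.51 and 4.47 with CPEB1, 5.06 and 4.96 in IgG, and 4.76 and 4.70 in input.

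No direction was seen for kinesins (5 of 31 lower, 2 higher, median -0.16), potassium channels (8 of 57 lower, 1 higher, median -0.02), heat shock and DNAJ chaperones (7 of 56 lower, none higher, median -0.16), or DEAD and DEAH box helicases (7 of 38 lower, 2 higher, median 0.01). The same held for genes of the unfolded protein response (4 of 28 lower, 3 higher, median 0.14), cholesterol synthesis (3 of 15 lower, 1 higher, median 0.03) and stress granule and FMRP family proteins (8 of 35 lower, 1 higher, median -0.01). In the last of these Celf2, an RNA-binding protein of splicing and mRNA stability, went from 8.18 to 4.96 with CPEB1 and from 6.05 to 5.57 in IgG, with -0.31 and -1.77 in its 2 other probe sets.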
